A study of Mus musculus with 79 samples.

Results

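A set of xenobiotic-oxidising genes named for the club cell, the secretory cell of the mouse bronchioles, was followed in lung RNA. The RNA came from homogenised right lungs of mice given cigarette smoke or room air. Earlier results of these data were known when the set was chosen. It was taken by gene name and not by a cut on measured values: Cyp2a5, Cyp2b10, Cyp2e1, Cyp2f2, Cyp2s1, Cyp4b1, Por, Fmo1 and Fmo2. Of these 9 genes, 7 were matched to a gene of the array by identifier, each to 1 entry, out of 31350 genes measured, and Cyp2b10 and Fmo2 were not analysed here because no entry was matched to them. The 79 mice, 1 array each, were 5 to 7 weeks old and fell into 16 groups of 4 to 6 mice by genotype, exposure, sex and duration. WT mice were C57BL/6J, and βENaC mice were their littermates carrying a transgene that overexpresses Scnn1b, the β subunit of the epithelial sodium channel. That transgene is driven by the promoter of Scgb1a1, itself the defining gene of club cells. Smoke mice received mainstream and side-stream smoke of 6 filterless reference cigarettes a day and sham mice breathed room air in the same chamber, for 1 day or 5 consecutive days, with lungs taken 4 hours after the last exposure. The level of a gene is its log2 intensity, in which 1 unit is a doubling of the array signal. Such levels may be compared between mice for 1 gene, not between genes.

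Cytochromes P450 insert oxygen into lipids, drugs and inhaled chemicals. They sit in the endoplasmic reticulum and take their electrons from Por, the NADPH-dependent P450 reductase, which every microsomal P450 shares. Flavin monooxygenases (FMOs) do related work on nitrogen and sulphur atoms with a flavin of their own and need no reductase. Club cells are known for a high content of both and for their injury by inhaled toxicants that these enzymes activate. Cyp2f2 oxidises naphthalene and styrene. Cyp2a5 hydroxylates coumarin and oxidises nicotine, Cyp4b1 oxidises fatty acids and furans, Cyp2e1 oxidises ethanol and small solvents, and Cyp2s1 is a P450 of epithelia outside the liver.

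Cyp2a5, Cyp2f2, Cyp2s1 and Cyp2e1 lie on chromosome 7, Cyp4b1 on chromosome 4, Por on chromosome 5 and Fmo1 on chromosome 1. Cyp2a5 has a near-identical copy, Cyp2a4, in the same Cyp2 cluster, and because the array may not part their transcripts, each is given with the other. The 250 bases before the RefSeq start sites (build GRCm38.p6) of both are shown because their rows moved together, and those of Cyp2f2 and Cyp4b1 because these were the pair of P450 genes that followed each other most closely across mice. Capitals mark matches, on either strand, to a TATA box (TATAAA) or a C/EBP motif written as TTGCNNAA, and the strings run 5′ to 3′ towards the start.
Cyp2a5 promoter, chr7:26835089-26835338, plus strand: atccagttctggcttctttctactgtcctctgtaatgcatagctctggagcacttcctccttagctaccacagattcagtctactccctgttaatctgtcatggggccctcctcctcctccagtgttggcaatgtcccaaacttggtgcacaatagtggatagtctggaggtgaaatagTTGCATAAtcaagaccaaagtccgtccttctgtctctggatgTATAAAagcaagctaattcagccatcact
Cyp2a4 promoter, chr7:26306942-26307191, plus strand: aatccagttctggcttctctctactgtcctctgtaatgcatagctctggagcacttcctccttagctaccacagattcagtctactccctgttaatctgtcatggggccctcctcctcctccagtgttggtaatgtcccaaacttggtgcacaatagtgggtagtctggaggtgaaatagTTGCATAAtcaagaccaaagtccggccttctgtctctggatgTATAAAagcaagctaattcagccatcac
Cyp2f2 promoter, chr7:27119705-27119954, plus strand: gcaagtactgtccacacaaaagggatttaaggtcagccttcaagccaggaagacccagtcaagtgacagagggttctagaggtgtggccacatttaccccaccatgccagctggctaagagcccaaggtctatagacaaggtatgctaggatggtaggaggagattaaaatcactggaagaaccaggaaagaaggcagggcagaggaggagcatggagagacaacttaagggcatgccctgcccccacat
Cyp4b1 promoter, chr4:115647722-115647971, minus strand: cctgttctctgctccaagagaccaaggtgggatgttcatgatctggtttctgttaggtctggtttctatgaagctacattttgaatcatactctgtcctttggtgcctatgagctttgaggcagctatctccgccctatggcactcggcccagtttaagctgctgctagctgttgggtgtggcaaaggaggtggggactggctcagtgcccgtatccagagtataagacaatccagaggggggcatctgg
The Cyp2a5 and Cyp2a4 windows were identical at 245 of 251 aligned positions (97.6%), and each held 1 TATA box and 1 C/EBP match. Of all 32851 windows in the RefSeq table, 12.4% held the TATA letters and 9.56% the C/EBP letters. None of the 4 windows held the core of the aryl hydrocarbon receptor site (GCGTG, in 28.2% of all windows), the antioxidant response core (TGACNNNGC, 10.2%) or the FOXA letters TGTTTAC (3.17%). The Cyp1a1 window held the first of these once and the Por window held it 3 times. These are counts of letters in a short window and were not related to binding.

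The labels were checked first. Scnn1b stood at 11.69 ± 0.10 (SD, n = 39) in βENaC mice and 8.98 ± 0.21 (n = 40) in WT mice, with no overlap. The source names of 13 smoke-exposed WT mice gave the other genotype, and all 13 had Scnn1b below every βENaC mouse, so the titles were used. Cyp1a1, the classic gene induced by smoke hydrocarbons, stood at 11.16 ± 0.30 in the 39 smoke mice and 6.81 ± 0.98 in the 40 sham mice. A pair of βENaC mice were far below the rest of their groups in 3 members each, a smoke-exposed male at 1 day (replicate 1) and a smoke-exposed female at 5 days (replicate 3). Results that changed without them are given with both values. A βENaC sham male at 1 day (replicate 1) held the lowest 1-day level of Cyp2a5, Cyp2f2, Cyp4b1, Por and Fmo1. The genotype calls of these genes at 1 day held without it.

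Genotype was the factor for which most of these genes passed the test, although the largest coefficient of any of them was that of sex on Cyp2e1 at 1 day. In βENaC mice 6 of the 7 measured genes, all but Cyp2e1, passed the test as lower than in WT at 1 day and again at 5 days, and none passed as higher. Over all 31350 genes the share that passed as lower was 2.29% at 1 day and 5.33% at 5 days, and the share that passed as higher was 3.58% and 4.85%. Such shares, here and below, count genes of every signal level, dim ones included. The 6 genes lay at percentiles 62.7 (Cyp2a5) to 99.9 (Cyp2f2) of mean signal. A gene passed at an adjusted p below 0.05 in limma's moderated test on the terms genotype, exposure and sex, fitted separately for each duration with Benjamini-Hochberg adjustment across the whole array. The median genotype coefficient, βENaC minus WT on the log2 scale, was -0.29 over the 7 genes at 1 day and -0.37 at 5 days, against 0.0024 and -0.012 over all genes. In RNA of homogenised lung, fewer cells of a type and less RNA per cell cannot be told apart.

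**Figure D1:**
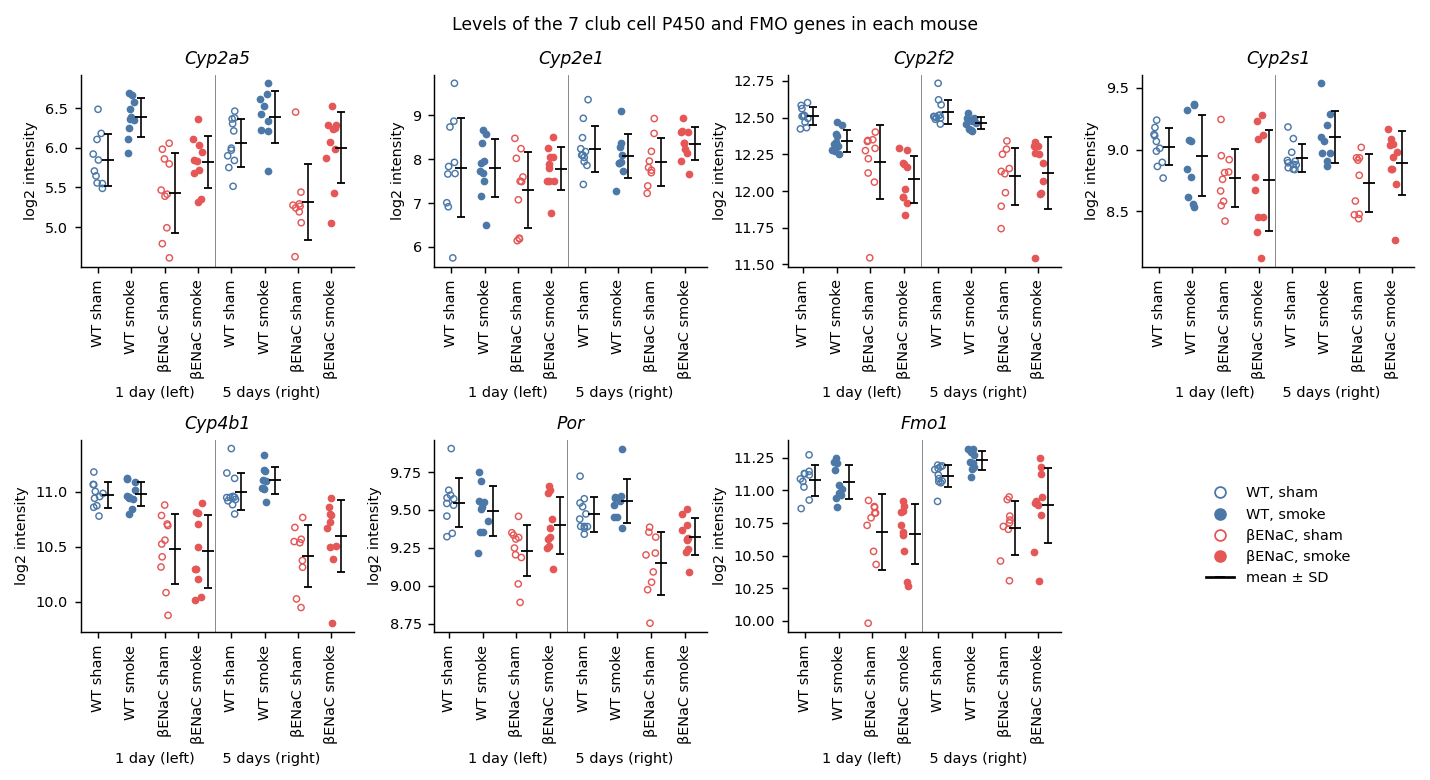
Log2 intensity (y axis) of each of the 7 genes in every mouse, by genotype and exposure (x axis) at 1 day (left of the line) and 5 days (right), with the mean and SD of each group in black. The mean of the βENaC mice (red) is below that of the WT mice (blue) of the same exposure and duration in every panel but that of Cyp2e1, with overlap between mice, and at 5 days no βENaC mouse reached the lowest WT mouse for Cyp2f2.

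Cyp2f2 was the only member whose genotypes did not overlap at 5 days. Overlap between mice was not counted over all genes, so such counts, here and below, only describe the members. At 1 day its level ran from 11.54 through a median of 12.19 to 12.40 in the 20 βENaC mice, and from 12.25 through 12.44 to 12.60 in the 20 WT mice. At 5 days it ran from 11.54 through 12.15 to 12.34 in 19 βENaC mice, and from 12.41 through 12.50 to 12.73 in 20 WT mice. At 1 day 12 of the 20 βENaC mice lay below every WT mouse. The coefficient was -0.29 ± 0.05 (SE; 1.22-fold lower, limma adjusted p = 1.0e-04) at 1 day and -0.39 ± 0.05 (1.31-fold lower, adjusted p = 1.0e-06) at 5 days. The WT mice were the tighter group, with an SD of 0.11 and 0.075 against 0.21 and 0.21 in βENaC.

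Cyp4b1 fell further. Its level at 1 day ran from 9.88 through 10.51 to 10.89 in βENaC and from 10.78 through 10.96 to 11.18 in WT, and at 5 days from 9.80 through 10.55 to 10.94 and from 10.80 through 11.03 to 11.39. Of the βENaC mice, 15 at 1 day and 17 at 5 days were below every WT mouse. The coefficient was -0.50 ± 0.07 (1.42-fold lower, limma adjusted p = 9.9e-06) at 1 day and -0.54 ± 0.07 (1.45-fold lower, adjusted p = 1.8e-06) at 5 days. The difference was present in each sex and exposure, between -0.34 and -0.69 in the 8 within-group comparisons of means.

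Cyp2a5, the nicotine oxidase, had the largest genotype coefficient at 5 days among the 7 genes. Its level ran from 4.61 through 5.76 to 6.36 in βENaC and from 5.49 through 6.15 to 6.69 in WT at 1 day, and from 4.63 through 5.44 to 6.52 and from 5.51 through 6.26 to 6.81 at 5 days. The genotypes overlapped, with 8 of 20 and 10 of 19 βENaC mice below every WT mouse. The coefficient was -0.49 ± 0.11 (limma adjusted p = 0.0032) at 1 day and -0.57 ± 0.12 (1.48-fold lower, adjusted p = 0.0017) at 5 days. Its copy Cyp2a4 was lower at 1 day (-0.48 ± 0.11, adjusted p = 0.0043) and gave -0.37 ± 0.14 at 5 days, where it missed the threshold (adjusted p = 0.083).

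Cyp2s1 had the smallest coefficient among the 6 at 5 days, and Por at 1 day. Its level ran from 8.12 through 8.77 to 9.28 in βENaC and from 8.54 through 9.04 to 9.37 in WT at 1 day, and from 8.27 through 8.91 to 9.17 and from 8.84 through 8.94 to 9.54 at 5 days. The genotypes overlapped broadly. The coefficient was -0.23 ± 0.07 (limma adjusted p = 0.045) at 1 day and -0.21 ± 0.07 (adjusted p = 0.035) at 5 days. The call did not hold without the low βENaC male at 1 day (-0.21, adjusted p = 0.075) or the low βENaC female at 5 days (-0.17, adjusted p = 0.056), and 22 of the 40 single mice at 1 day and 9 of the 39 at 5 days ended it when left out.

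Fmo1, which oxygenates nitrogen and sulphur in drugs and in nicotine, fell with the P450 genes. Its level at 1 day ran from 9.98 through 10.76 to 10.92 in βENaC and from 10.86 through 11.08 to 11.27 in WT, with 15 of 20 βENaC mice below every WT mouse. At 5 days it ran from 10.31 through 10.81 to 11.25 and from 10.92 through 11.17 to 11.32, with 12 of 19 below. The coefficient was -0.40 ± 0.06 (1.32-fold lower, limma adjusted p = 4.1e-05) and -0.37 ± 0.06 (1.29-fold lower, adjusted p = 2.1e-05).

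Por, the electron donor of the P450s, was also lower. Its level ran from 8.89 through 9.31 to 9.66 in βENaC and from 9.22 through 9.54 to 9.91 in WT at 1 day, and from 8.75 through 9.30 to 9.51 and from 9.34 through 9.50 to 9.90 at 5 days. At 5 days 13 of 19 βENaC mice lay below every WT mouse, against 5 of 20 at 1 day. The coefficient was -0.21 ± 0.05 (1.15-fold lower, limma adjusted p = 0.0076) and -0.28 ± 0.05 (1.21-fold lower, adjusted p = 8.0e-05).

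Cyp2e1 stood apart from the others. Its level ran from 6.14 through 7.55 to 8.50 in βENaC and from 5.75 through 7.78 to 9.73 in WT at 1 day, and from 7.22 through 8.18 to 8.94 and from 7.27 through 8.09 to 9.35 at 5 days. The groups overlapped almost wholly. The coefficient was -0.27 (95% interval -0.61 to 0.070, adjusted p = 0.44) at 1 day and -0.039 (-0.34 to 0.26, adjusted p = 0.92) at 5 days, so a fall of the size seen for Por was not excluded at either time.

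**Figure D2:**
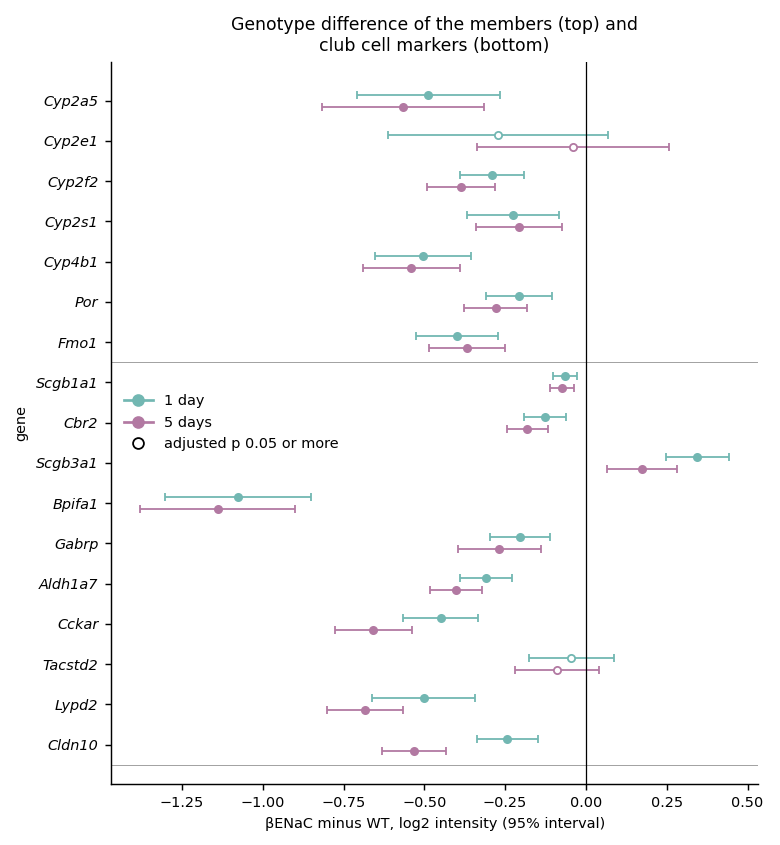
Genotype coefficient (x axis, βENaC minus WT in log2 intensity, with its 95% interval) of the 7 genes (top) and of 10 club cell markers (bottom), at 1 day and 5 days, with open points where the adjusted p was 0.05 or more. Scgb1a1 lies close to 0 at -0.064 and -0.074, while Cyp4b1 lies at -0.50 and -0.54 and Bpifa1 at -1.08 and -1.14.

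The markers of the club cell moved in the same comparison, though not evenly. Of 12 listed club cell markers 10 were measured, and 8 passed as lower and 1 as higher in βENaC at each duration. Scgb1a1, the main secretory protein of club cells, differed by -0.064 ± 0.019 at 1 day and -0.074 ± 0.019 at 5 days (limma adjusted p = 0.031 and 0.0060). Cbr2, a carbonyl reductase, differed by -0.13 ± 0.03 and -0.18 ± 0.03, and Scgb3a1, a secretoglobin, was higher by 0.35 ± 0.05 and 0.17 ± 0.05. The summed linear level of the 10 markers, on the log2 scale, ranged from 14.23 to 14.50 in βENaC and 14.37 to 14.58 in WT at 1 day, and from 14.13 to 14.59 and 14.43 to 14.73 at 5 days. Such sums, here and below, are weighted to the genes of brightest signal and do not count cells. Bpifa1, chosen for mention after its values were seen, had the largest difference on that list, -1.08 ± 0.11 and -1.14 ± 0.12. The part of club cell number in the 6 lower genes was not tested.

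Markers of other cells also differed by genotype. Of 7 measured goblet cell markers 5 at 1 day and 6 at 5 days passed as higher in βENaC, with the summed level from 9.52 to 11.76 against 8.46 to 11.18 in WT at 1 day, and from 9.92 to 11.95 against 8.43 to 10.57 at 5 days. Muc5b, an airway mucin, was higher by 0.82 and 0.78. Of 8 macrophage markers 5 passed as higher and 1 as lower at each duration (summed level at 1 day 12.32 to 13.75 against 12.24 to 12.89), and of 8 endothelial markers 1 passed as higher and 5 as lower at each (12.98 to 13.51 against 13.33 to 13.56). Of the ciliated cell markers 1 of 10 passed in each direction at 1 day and 3 as lower at 5 days. Alveolar type 2 markers gave 3 and 4 of 8 as higher, alveolar type 1 markers 2 and 4 of 5 as lower, and fibroblast markers 4 of 8 as higher at 1 day and 2 as lower at 5 days. White fat gave 1 of 8 as lower at each duration, hepatocyte 1 of 7 as higher, and the 5 neutrophil, 5 brown fat and 6 heart muscle markers gave no call. The part of any of these in the members' differences was not tested.

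Smoke moved 1 of the 7 genes. Cyp2a5 rose at 1 day and again at 5 days, the other 6 did not pass at either duration, and none passed as lower. Over all genes 5.03% passed as higher and 4.43% as lower with smoke at 1 day, and 3.17% and 3.37% at 5 days. Among the 10 club cell markers 1 passed as higher and 4 as lower at 1 day and 3 as higher and none as lower at 5 days, and 5 of 10 ciliated cell markers passed as lower at 1 day. Scgb3a1 rose by 0.15 ± 0.05 and 0.59 ± 0.05. The part of these cells in the members' smoke values was not tested.

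Cyp2a5 ran from 4.61 through 5.68 to 6.49 in the 20 sham mice and from 5.32 through 6.11 to 6.69 in the 20 smoke mice at 1 day. At 5 days it ran from 4.63 through 5.80 to 6.46 in 20 sham mice and from 5.05 through 6.25 to 6.81 in 19 smoke mice. The exposures overlapped, but 19 of 20 smoke mice at 1 day and 17 of 19 at 5 days were above the mean of the sham mice of their own genotype and sex. The exposure coefficient, smoke minus sham, was 0.46 ± 0.11 (1.37-fold higher, limma adjusted p = 0.0041) and 0.50 ± 0.12 (1.41-fold higher, adjusted p = 0.0084). The opposite signs of smoke and genotype left βENaC smoke mice close to WT sham mice, at 5.82 ± 0.32 (SD, n = 10) against 5.85 ± 0.33 (n = 10) at 1 day and 6.00 ± 0.45 (n = 10) against 6.06 ± 0.30 (n = 11) at 5 days. WT smoke mice were highest, at 6.38 ± 0.24 (n = 10) and 6.39 ± 0.33 (n = 9), and βENaC sham mice lowest, at 5.44 ± 0.50 (n = 10) and 5.32 ± 0.48 (n = 9). Cyp2a4 rose with it, by 0.43 ± 0.11 (adjusted p = 0.0087) and 0.63 ± 0.14 (adjusted p = 0.0024), so the signal of either copy may hold some of the other.

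Cyp2f2 was near the threshold at 1 day. It ran from 11.54 through 12.41 to 12.60 in sham mice and from 11.83 through 12.28 to 12.47 in smoke mice, with 7 sham mice above every smoke mouse. The coefficient was -0.14 ± 0.05 (limma adjusted p = 0.062). It became -0.18 (adjusted p = 2.6e-04) without a single βENaC sham male (replicate 1), the lowest mouse of its group. Without the low βENaC smoke male (replicate 1) it was -0.13 (adjusted p = 0.097). The smoke difference of means was 0.031 in βENaC males, -0.26 in βENaC females, -0.19 in WT females and -0.14 in WT males. At 5 days the coefficient was -0.029 (95% interval -0.13 to 0.075).

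The other 5 genes gave small values. At 1 day the coefficient of Cyp4b1 was -0.0092 (95% interval -0.16 to 0.14) and that of Fmo1 -0.013 (-0.14 to 0.11). Por gave 0.055 (-0.047 to 0.16), Cyp2s1 -0.046 (-0.19 to 0.096) and Cyp2e1 0.24 (-0.099 to 0.58). All of these but that of Cyp2e1 exclude a change of 1.3-fold, which is 0.38 on this scale. At 5 days Cyp2s1 stood at 0.17 (0.036 to 0.30, adjusted p = 0.13), Fmo1 at 0.15 (0.028 to 0.26, adjusted p = 0.14), Por at 0.13 (0.033 to 0.23, adjusted p = 0.10) and Cyp4b1 at 0.14 (-0.012 to 0.29, adjusted p = 0.33). Cyp2s1 and Fmo1 passed once the low βENaC smoke female was left out (0.20 and 0.18, adjusted p = 0.020 and 0.017), which brought the count to 3 of 7. Cyp2e1 gave 0.12 (-0.17 to 0.42).

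**Figure D3:**
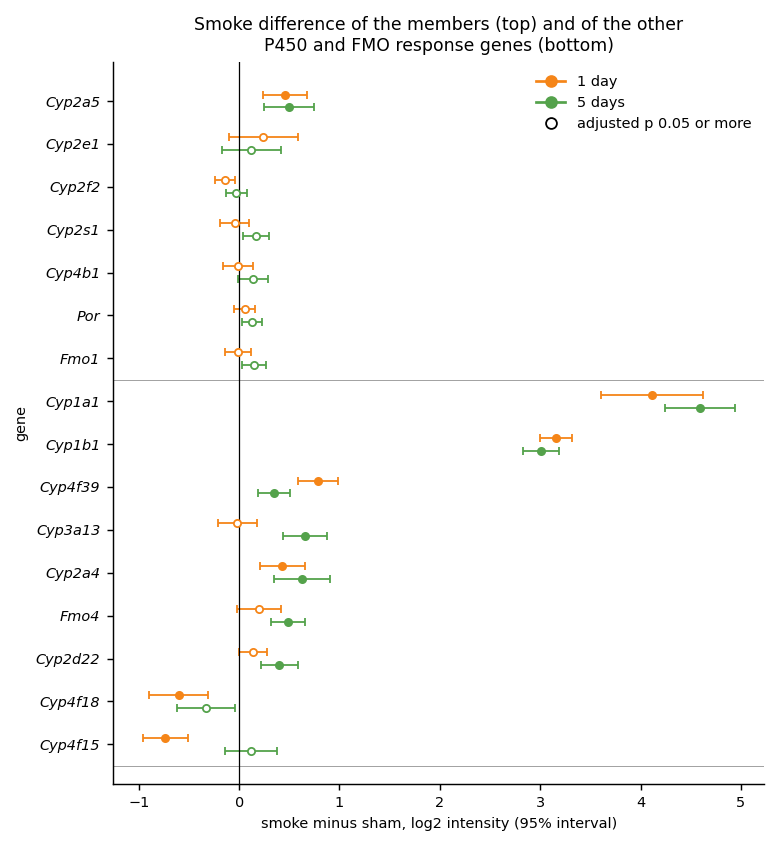
Exposure coefficient (x axis, smoke minus sham in log2 intensity, with its 95% interval) of the 7 genes (top) and of the other P450 and FMO genes that passed with a change over 1.3-fold at 1 or 5 days (bottom), with open points where the adjusted p was 0.05 or more. Cyp1a1 and Cyp1b1 stand between 3.01 and 4.59, and Cyp2a5 at 0.46 and 0.50 is the only one of the 7 with filled points.

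Larger smoke changes were seen in a few other genes of the wider family. Of 78 other P450 and FMO genes listed 70 were measured, and 5 passed as higher and 4 as lower with smoke at 1 day, 9 as higher and 1 as lower at 5 days. Over all genes 5.03% passed as higher and 4.43% as lower at 1 day, and 3.17% and 3.37% at 5 days. The family counts at 1 day were near those shares. The median exposure coefficient of the 70 genes was 0.0080 and 0.019, against 0.010 and -0.0018 over all genes. Cyp1a1 rose 17.3-fold at 1 day and 24.1-fold at 5 days, and Cyp1b1, another P450 controlled by the aryl hydrocarbon receptor, rose 8.92-fold and 8.05-fold. Cyp4f39 rose by 0.79 ± 0.10 and 0.35, and Cyp4f15 and Cyp4f18 fell by 0.73 and 0.60 on the log2 scale at 1 day. At 5 days Cyp3a13 rose by 0.66 ± 0.11 and Fmo4 by 0.49 ± 0.08, and Cyp2d22, singled out here after its values were seen, by 0.40 ± 0.09. Of 24 measured genes for electron partners, heme supply and regulators, 6 at 1 day and 7 at 5 days passed as higher and none as lower. The largest was Ahrr, the repressor of the aryl hydrocarbon receptor, at 0.47 ± 0.06 at 1 day.

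By genotype the wider family gave 0 higher and 5 lower of 70 at 1 day and 1 higher and 7 lower at 5 days. The 7 measured members gave 0 higher and 6 lower at each duration. Over all genes 3.58% passed as higher and 2.29% as lower at 1 day, and 4.85% and 5.33% at 5 days. Cyp3a13 fell by 0.40 ± 0.10 at 1 day and 0.62 ± 0.11 at 5 days. Cyp4f15, Fmo4 and Fmo6 were lower at 5 days, with coefficients of -0.74, -0.41 and -0.40. Of the 24 partner and regulator genes 1 passed as lower at 1 day and 4 at 5 days, with none over 1.3-fold. They were named after their values were seen: Pgrmc1, a heme-binding partner of P450s (-0.22 at both durations), and at 5 days also Alas1, the first enzyme of heme synthesis (-0.19), Ephx1, the microsomal epoxide hydrolase (-0.18), and Foxa1, a transcription factor of airway epithelium (-0.20).

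Sex moved Cyp2e1 and Cyp2s1 at 1 day. At that time 2 of the 7 genes passed as higher in males, where 7.82% of all genes did, and at 5 days none passed (0 of 7 in limma, 1 at an unadjusted p below 0.05), where 0.472% of all genes did. Cyp2e1 at 1 day ran from 5.75 through 7.33 to 7.79 in 20 females and from 7.49 through 8.15 to 9.73 in 20 males, and 18 of the 20 males were above every female. The sex coefficient, male minus female, was 1.17 ± 0.17 (2.25-fold higher, limma adjusted p = 9.3e-06). At 5 days it was 0.37 ± 0.15 (adjusted p = 0.29), with females from 7.22 through 7.92 to 9.35 and males from 7.39 through 8.27 to 9.10. The change in the sex difference between durations was not tested, and the mean of the females was 7.09 ± 0.63 (SD) at 1 day and 7.98 ± 0.51 at 5 days.

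**Figure D4:**
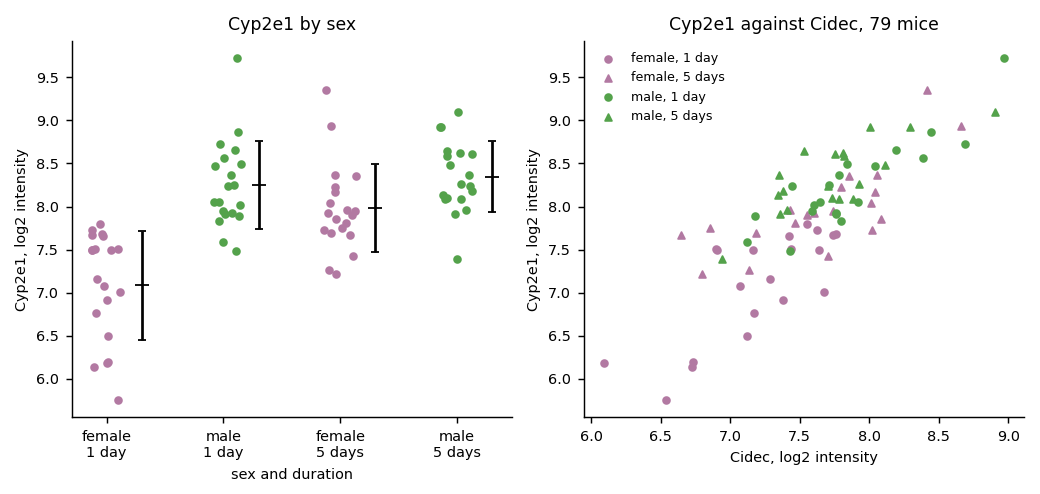
Cyp2e1 log2 intensity by sex and duration (left, points are mice, black marks the mean and SD) and against Cidec log2 intensity in the 79 mice (right, circles 1 day, triangles 5 days). Males lie above females at 1 day, by 1.17, and Cyp2e1 follows Cidec in both sexes (r = 0.79 in 40 females and 0.81 in 39 males).

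Cyp2e1 did not follow the club cell markers. Its correlation over the 79 mice was -0.087 with Scgb1a1 and lay between -0.087 and 0.29 with all 10 measured club cell markers. Its closest genes were Cidec, a lipid droplet protein of fat cells (r = 0.82, rho = 0.78), Pck1, of gluconeogenesis and fat (r = 0.75, rho = 0.72), and Cfd, the fat cell protein adipsin (r = 0.71, rho = 0.73). Over the 8 white fat markers r ran from 0.10 to 0.82. Cidec also varied with other members, but less closely. It gave r = 0.55 in females and 0.54 in males with Cyp2f2, and 0.58 and 0.52 with Cyp4b1. These values pool the genotypes, and Cidec, like Cyp2f2 and Cyp4b1, was lower in βENaC mice. Its genotype coefficient was -0.47 at 1 day and -0.44 at 5 days. After subtracting the mean of each group of mice, Cidec gave r = 0.82 with Cyp2e1, 0.34 with Cyp2f2 and 0.24 with Cyp2a5. For Cyp2e1 the club cell name of the set is not borne out by its course across these lungs. Of those 8 markers 2 passed as higher in males at 1 day, Cidec (0.67 ± 0.12, limma adjusted p = 2.2e-04) and Lipe (0.27 ± 0.06, adjusted p = 0.0043), and the summed level of the 8 ranged from 9.53 to 11.02 in females and 9.95 to 11.72 in males. The part of fat in the sex difference was not tested. The 7 hepatocyte markers gave no call by sex, with summed levels of 6.33 to 8.94 in females and 6.32 to 6.92 in males.

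Cyp2s1 at 1 day ran from 8.12 through 8.77 to 9.01 in females and from 8.42 through 9.11 to 9.37 in males, with 15 males above every female. The coefficient was 0.37 ± 0.07 (1.29-fold higher, limma adjusted p = 3.8e-04), and at 5 days it was 0.011 (95% interval -0.12 to 0.14). Por gave 0.15 ± 0.05 at 1 day and missed the threshold (adjusted p = 0.056), passing under 4 of the alternative settings and without any 1 of 8 mice.

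The smoke effect was then compared between genotypes, sexes and durations. None of the 7 genes passed an interaction test in limma, with 1 at an unadjusted p below 0.05 for exposure by genotype at each duration, 2 for exposure by sex at 1 day, 0 at 5 days and 0 for exposure by duration. Over all genes 0.00638% passed for exposure by genotype and 0.00638% for exposure by sex at 1 day, 0% and 0% at 5 days, and 0.612% for exposure by duration. The smallest unadjusted p was that of Cyp2s1 for exposure by sex at 1 day, where the smoke effect in males exceeded that in females by 0.49 (95% interval 0.25 to 0.73, adjusted p = 0.33). Its female means went from 8.91 in sham to 8.66 in smoke mice in WT and from 8.77 to 8.43 in βENaC, and its male means from 9.14 to 9.24 and from 8.77 to 9.08. The groups of females exposed to smoke were the lowest in each genotype. The smoke effect of Cyp2a5 differed by 0.15 (WT minus βENaC, -0.29 to 0.59) at 1 day and by -0.36 (-0.86 to 0.15) at 5 days. Between durations it differed by -5.1e-05 (5 days minus 1 day, -0.41 to 0.41), in a fit without terms for genotype and sex. The intervals between genotypes leave room for differences as large as the effect itself.

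**Figure D5:**
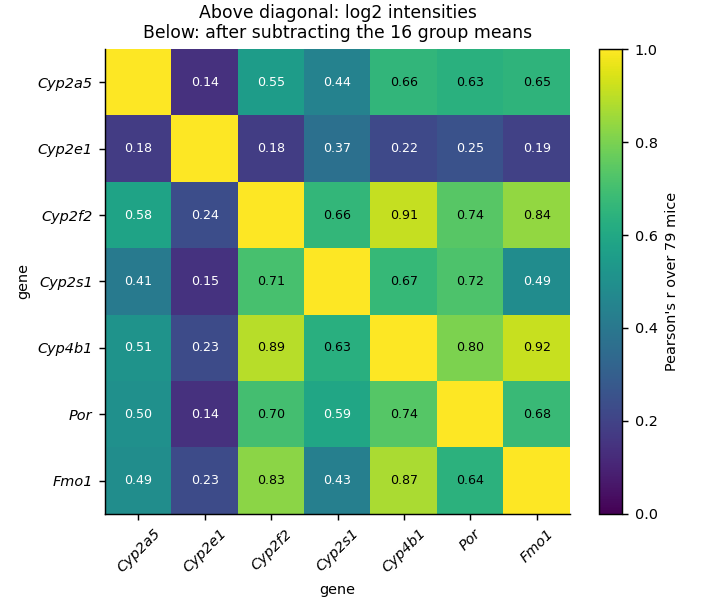
Pearson's r between the 7 genes (both axes) over 79 mice, above the diagonal from log2 intensities and below it after subtracting the means of the 16 groups. Cyp2f2, Cyp4b1 and Fmo1 form the bright block, at 0.84 to 0.92 above the diagonal, and the row and column of Cyp2e1 are dark.

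The members also varied together from mouse to mouse. The highest correlation was between Cyp4b1 and Fmo1 (r = 0.92 over 79 mice, 0.87 after subtracting the 16 group means), then Cyp2f2 and Cyp4b1 (0.91 and 0.89), and Cyp2f2 and Fmo1 (0.84 and 0.83). Por followed Cyp4b1 at 0.80 and 0.74. Cyp2e1 gave 0.14 to 0.37 with the other 6. These are descriptions of arrays normalised together, in mice that share groups.

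The genes with the most similar course, members included, were then sought, 3 for each member and, since they were picked as the highest of all named genes, without a test. Cyp4b1, Cyp2f2 and Fmo1 all had Ednrb, an endothelin receptor of capillary endothelium, among their 3 (r = 0.91, 0.89 and 0.91, and 0.82, 0.79 and 0.88 after group means). The genotype coefficient of Ednrb was -0.62 and -0.60. Cyp2f2 was also like Pon1, paraoxonase (r = 0.88). Cyp2a5 had Cyp2a4 (r = 0.80) and the glutathione transferases Gsta3 (0.77) and Gsta4 (0.76), which conjugate the products of oxidation. Por had Cbr2 (0.84), Cry2, a clock repressor (0.83), and Fibin (0.81). Cyp2s1 had Aldh2, aldehyde dehydrogenase (0.80), Eps8l2 (0.80) and Crip2 (0.78). Leaving out the 2 mice farthest from the median of the member left r between 0.73 and 0.91 for each of them.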

How the data were processed

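RNA of homogenised right lung from 79 mice was hybridised to Affymetrix moGene2.1 arrays, 1 mouse per array and all on 1 plate. The deposited values are log2 intensities that the authors made by RMA background correction, a correction for probe sequence and GC content, quantile normalization and median polish (Affymetrix Expression Console 1.4 and Partek 6.6, per the labels). The authors removed an array that they judged mislabelled. The genome build behind the array's annotation was not given in the sources used here. Precision depends on how many arrays are compared and on the spread between mice. Groups came from the sample titles.

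Of 31350 genes, 2537 were named through the study's supplementary tables and 19300 through RefSeq, and 9513 had no name. The members were taken by name, each by its entry with the highest mean, and the members and lists were chosen with earlier results of these data known. For each duration limma 3.58.1 in R 4.3.3 (lmFit and eBayes) fitted genotype, exposure and sex to all genes without a filter. Interactions were fitted in further models, and the model for exposure by duration held no terms for genotype and sex. p-values are two-sided and were adjusted by Benjamini-Hochberg over all genes. A gene passed at an adjusted p below 0.05, and a change over 1.3-fold is named where used. The fits were tested on simulated data. Named were the members and Cyp2a4, from the lists of P450, FMO, partner and regulator genes the 5 largest exposure and genotype changes over 1.3-fold, up to 3 markers of highest mean per cell type, the 3 genes most correlated with each member, and Scnn1b and Cyp1a1. A gene that this rule picks is not reported here. Alternatives were another normalization, a filter on the lowest 30% of means, array weights, ordinary linear models, the fold rule, a replicate block and leaving out each mouse. Figures were drawn with matplotlib 3.10.9.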

Additional observations from a re-analysis of the deposited data

Results flagged for a closer look

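In each of the 112 combinations of gene and group the highest and lowest mouse were set against the others of the group, and 10 stood apart by Dixon's criterion, where chance gives about 1 in 20. Of these 10, 6 came from a pair of βENaC mice. The smoke-exposed βENaC female at 5 days (replicate 3) was low for Cyp2a5 at 5.05 (next mouse 6.07), for Cyp2f2 at 11.54 (12.25) and for Cyp4b1 at 9.80 (10.67). The smoke-exposed βENaC male at 1 day (replicate 1) was low for Cyp2f2 at 11.83 (12.18), for Cyp4b1 at 10.04 (10.70) and for Fmo1 at 10.26 (10.74).

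The other 4 were in WT sham males. At 5 days replicate 1 was high for Cyp2s1 at 9.18 (next mouse 8.91) and low for Cyp4b1 at 10.80 (10.92). At 1 day replicate 5 was high for Por at 9.91 (9.63) and replicate 2 low for Fmo1 at 10.86 (11.09).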

How the results depend on the processing

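The 16 gene differences that passed kept direction and threshold in 140 of 144 values under other settings and in 602 of 633 with a mouse left out, and none reversed. The 4 lost were Cyp2s1 by genotype, with adjusted p = 0.056 under ordinary linear models and 0.054 under array weights at 1 day, and 0.056 under cyclic loess and 0.057 under array weights at 5 days. The number of members passing for smoke at 1 day became 2 under cyclic loess, without the lowest 30% of means and under array weights, where Cyp2f2 passed as lower (adjusted p = 0.020, 0.047 and 0.0059), and at 5 days it became 2 under array weights (Fmo1, adjusted p = 0.043). Under the 1.3-fold rule 3 members changed by genotype at 1 day, 3 at 5 days, and 1 by sex at 1 day. With a mouse left out the smoke count ran from 1 to 2 at 1 day, reaching 2 without βENaC smoke male replicate 2 or 3 or βENaC sham male replicate 1 or 2, and from 1 to 3 at 5 days, reaching 3 without βENaC smoke female replicate 3. The causes were not tested.

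Values near 0 changed sign. The sex coefficient of Cyp2s1 at 5 days was -0.0066 under cyclic loess and -0.0014 under array weights. The Cyp2a5 difference between durations was 0.037 with genotype and sex added, 0.0040 after median centering, 0.0021 under cyclic loess, 0.0019 under array weights and 0.021 with the replicate block. With a mouse left out, smoke at 1 day ran from -0.045 to 0.017 for Cyp4b1 and -0.051 to 0.0085 for Fmo1, smoke at 5 days from -0.051 to 6.9e-04 for Cyp2f2, genotype at 5 days from -0.093 to 0.028 for Cyp2e1, sex at 5 days from -0.026 to 0.033 for Cyp2s1, and the Cyp2a5 difference between durations from -0.058 to 0.063.

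With the replicate block the counts were 1 for exposure, 6 for genotype and 2 for sex at 1 day, 1, 6 and 0 at 5 days, and 0 for each interaction, so no count moved. Mice with the same number gave a mean r of 0.012 over 266 pairs, of which 42 were over 0.1 and the highest was 0.54. Mice with different numbers gave a mean r of -0.0027 over 1098 pairs, of which 128 were over 0.1 and the highest was 0.35. Both means were small, and the numbers were not taken as pairs. A gene's next-highest entry was not run, since each member has 1.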
